A study of Mus musculus with 9 samples.

Results

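The 6 arrays described here compare granulocyte-macrophage progenitors (GMPs) that had lost both copies of Dicer1 with GMPs that had lost 1 copy. They are 3 arrays labelled Dicer null and 3 labelled as carrying a heterozygous Dicer deletion, taken from their titles, of 9 arrays in the series. The other 3 arrays, labelled Dicer wild type, entered the same fit and are used to place each change against the first copy's loss. GMPs are bone marrow progenitors of neutrophils, monocytes and related myeloid cells.

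All 9 samples share a labelled background of Cebpa-Cre, an R26-LSL-Eyfp reporter and floxed Dicer1 alleles, so both groups carry Cre and at least 1 floxed copy. Cre is driven by Cebpa, a gene switched on as cells commit to the myeloid lineages, and it also turns on the reporter by which the cells were sorted. Donor cells were fetal liver cells of embryonic day 13.5, given to C57BL/6 recipients of 6 to 8 weeks that had been irradiated with 8.5 Gy, and marrow was taken 6 to 10 weeks later. Cells of 1 fetal liver typically went to 2 recipients, and the labels do not say which arrays share a liver. The p-values thus rest on how far these samples differ among themselves, which may be technical in part. In bulk RNA, fewer cells of a type and less RNA per cell cannot be told apart.

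Dicer1 encodes the ribonuclease that cuts hairpin precursors into mature microRNAs. A mature microRNA guides an Argonaute protein to messenger RNAs that pair with its seed, the bases 2 to 8 from its 5′ end. TNRC6 proteins and the CCR4-NOT deadenylase complex then repress and destabilise the bound transcript. In the myeloid lineages, miR-223 and miR-142 are known as abundant microRNAs, let-7 restrains a set of genes typical of fetal cells, and the miR-17 cluster is known for repressing cell cycle inhibitors and death genes. The mature sequences of those families are shown because several members of each of their lists of described targets were higher in null cells. Seeds are in capitals.

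let-7a-5p: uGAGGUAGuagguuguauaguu
let-7i-5p: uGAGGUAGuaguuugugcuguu
miR-17-5p: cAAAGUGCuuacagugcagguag
miR-20a-5p: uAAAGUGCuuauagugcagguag
miR-142a-3p: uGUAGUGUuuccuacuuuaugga
miR-223-3p: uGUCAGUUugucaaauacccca

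The sequences are RefSeq's, on build GRCm38.p6, where let-7a-5p is cut from the hairpin gene Mirlet7a-1 at chr13:48538239-48538260 and let-7i-5p from Mirlet7i at chr10:122985698-122985719, both on the minus strand. On the plus strand lie miR-17-5p at chr14:115043684-115043706, miR-20a-5p at chr14:115044183-115044205, miR-142a-3p at chr11:87756903-87756925 and miR-223-3p at chrX:96242884-96242905. The let-7 pair shares the seed GAGGUAG, and miR-17-5p and miR-20a-5p share AAAGUGC. The arrays measured messenger RNAs and not these mature microRNAs.

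Dicer1 was checked first. Its brighter probe set gave signals of 115, 101 and 97.2 on the null arrays, 169, 201 and 187 on the heterozygous arrays and 244, 228 and 223 on the wild-type arrays. Signals are linear intensities scaled so that each array has a trimmed mean of 100. Differences here and below are null minus heterozygous means of log2(signal + 12), a scale that understates the change of dim genes, and each gene is read from its brightest probe set. The null values lay below every heterozygous value (-0.76 log2 units, SE 0.11, limma adjusted p = 0.000429). The other probe set read 57, 47.4 and 49.9 against 78.8, 66.9 and 70.7, also without overlap, and its difference of -0.41 (SE 0.12) had an adjusted p of 0.0566 in a limma fit over probe sets. A signal remained on the null arrays at both probe sets. No label names the exon that Cre removes, so these signals do not measure how complete the deletion was.

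All 15 GMP markers had a mean level above the filter on dim genes, which lay at a signal of 8.5, and 4 of them differed between the groups (26.7%, against 14.3% of all genes tested): Gfi1 and the Fc receptor gene Fcgr2b rose by 0.67 and 0.72, and Irf8 and Csf3r fell by 0.66 and 0.40. Among the others, Mpo had mean signals of 7845 in null and 8360 in heterozygous cells, Elane had mean signals of 832 in null and 902 in heterozygous cells, Cd34 had mean signals of 754 in null and 714 in heterozygous cells, and none of these 3 passed the test (limma adjusted p of 0.511, 0.48 and 0.614). Between arrays, log2 signals over the genes tested correlated at 0.9869 to 0.9878 within null, 0.9863 to 0.989 within heterozygous and 0.974 to 0.982 between them. The labels call the samples female, yet on these 6 arrays Xist, which is read from an inactive X, lay between 16.6 and 30.2, and the Y-linked Eif2s3y between 622 and 859. Wild-type replicate 2 stood apart there, at 2610 and 1.13. The 18S 5′ control probe set read 1489, 1338 and 1830 on null arrays and 3128, 2548 and 2561 on heterozygous arrays. The 3′ to 5′ ratio of Gapdh, a sign of RNA integrity, was 7.72, 7.58 and 7.11 on null and 6.12, 6.33 and 6 on heterozygous arrays. Neither control overlapped between the groups. On wild-type arrays the 18S 5′ control read 1104, 907 and 1932 and the Gapdh ratio was 7.44, 6.71 and 6.56. Both controls thus set the heterozygous arrays apart from null and wild-type arrays alike. The part of these controls in the results below, the contrast of the steps included, was not tested.

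Of 18193 genes with a probe set of their own, 12343 had a mean signal high enough to be tested and 5850 did not. Of those tested, 1771 differed between null and heterozygous cells, which is 14.3% (limma, Benjamini-Hochberg adjusted p under 0.05). There were 846 higher in null (6.85%) and 925 lower (7.49%). At least a 2-fold change was reached by 81 of the higher genes and 23 of the lower ones, 0.656% and 0.186% of all tested. The 3 null and 3 heterozygous values did not overlap for 4034 genes (32.7%). The median difference over all tested genes was -0.03 on the log2 scale, with 5th and 95th percentiles of -0.51 and 0.50. Leaving out heterozygous replicate 1 gave 1034 calls, leaving out null replicate 3 gave 1065, leaving out wild-type replicate 2 gave 1897, and a variance prior without an intensity trend gave 1104.

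**Figure D1:**
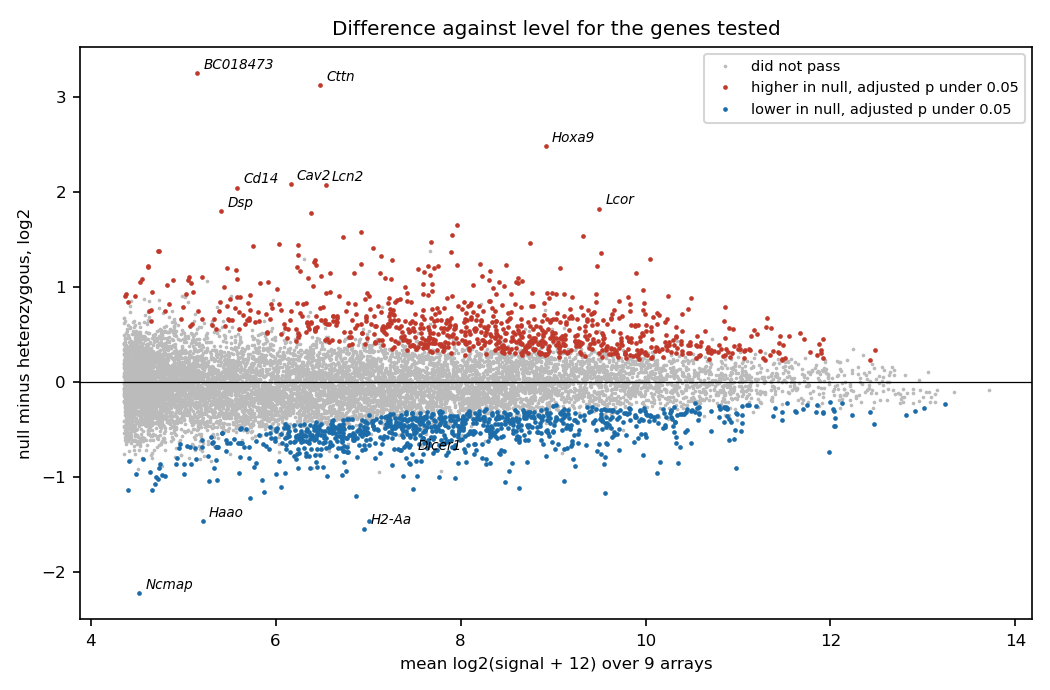
Difference between null and heterozygous GMPs (log2, vertical axis) against the mean log2(signal + 12) over 9 arrays (horizontal axis) for the 12343 genes tested. Red points are the 846 genes higher in null and blue points the 925 lower; grey points did not pass. BC018473, Cttn and Hoxa9 stand highest, and Ncmap lowest.

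The largest rises were in genes of differing roles. BC018473, a transcript named only by its sequence record, read 146, 136 and 151 on null arrays against 6.77, 7.24 and 0.298 on heterozygous arrays (3.25 log2 units, SE 0.21, limma adjusted p = 1.25e-06). Cttn, which encodes the actin-binding protein cortactin, read 292, 384 and 419 against 21.7, 28.9 and 44.6 (3.13 log2 units, SE 0.46, limma adjusted p = 0.000654). Hoxa9, a homeobox factor of stem and early progenitor cells, read 1264, 1647 and 1362 against 201, 236 and 302 (2.48 log2 units, SE 0.33, limma adjusted p = 0.000257). In all 3 every null array exceeded every heterozygous one, and the wild-type arrays lay with the heterozygous ones at 1.86, 5.92 and 9.16, at 24.1, 117 and 7.66 and at 280, 622 and 153, the last 2 sets being wide. The heterozygous and wild-type means of BC018473, 4.77 and 5.65, lay under the filter level, so it was tested only through its null values and the size of its difference depends on the pseudocount (5.06 with 1 and 2.27 with 32).

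The next rises were Cav2, a caveolar protein (2.08), Lcn2, an iron-binding neutrophil granule protein (2.07), Cd14, the lipopolysaccharide co-receptor (2.04), and Lcor, a corepressor of nuclear receptors (1.82). Lcor had the smallest p of these, at 1720, 1546 and 1771 in null against 435, 499 and 463 in heterozygous cells (SE 0.08, limma adjusted p = 2.92e-08), and 467, 452 and 458 in wild type. Its spread within groups was small against the gap between them. Dsp, a desmosomal plaque protein, rose by 1.80, Asph, an aspartate hydroxylase, by 1.78, Mfsd6, a membrane transporter-like protein, by 1.65, and Dock9, an activator of the GTPase Cdc42, by 1.57. Slc40a1, the iron exporter ferroportin, rose by 1.54, from 151, 159 and 165 to 499, 395 and 574. Fndc3a, Sipa1l1 and Myo1c, the last of these a class I myosin motor, rose by 1.53, 1.52 and 1.47. Over these 15 rises the limma adjusted p ranged from 2.92e-08 to 0.000654. At least 1 other probe set of each of Cttn, Lcor, Dsp, Mfsd6, Dock9, Fndc3a and Myo1c also passed. No other fitted probe set passed for Asph, Sipa1l1, Cav2, Slc40a1 and Hoxa9. Their values were -0.15 to 0.18 for Asph, 0.31 and -0.29 for Sipa1l1, 0.58 for Cav2, 0.57 for Slc40a1 and 0.66 for Hoxa9. With the mean over all probe sets the difference of Asph was 0.35 and did not pass (adjusted p = 0.113). Those of BC018473, Cttn, Hoxa9, Cav2, Dsp, Dock9, Fndc3a, Sipa1l1 and Myo1c shrank to 1.88, 1.29, 1.57, 1.33, 1.13, 0.55, 0.86, 0.44 and 0.86 and still passed (adjusted p up to 0.0239).

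The largest falls were fewer and smaller. Ncmap, named for a noncompact myelin protein, read 2.1, 0.963 and 1.72 in null, 56.2, 45.8 and 53.1 in heterozygous and 1.58, 1.86 and 3.11 in wild-type cells (-2.23 log2 units, SE 0.20, limma adjusted p = 1.19e-05). Pik3ap1, an adaptor that links receptors to phosphoinositide 3-kinase, read 74.9, 77 and 87, then 212, 222 and 298, then 74.8, 78.3 and 88.8 in the same order (-1.47 log2 units, SE 0.13, limma adjusted p = 1.72e-05). In both genes the heterozygous cells were high, and null and wild-type values lay together. The null and wild-type means of Ncmap, 1.59 and 2.18, lay under the filter level, so it was tested only through its heterozygous values. Averaged over its probe sets Pik3ap1 differed by -0.74. H2-Aa, the alpha chain of an MHC class II molecule, read 64.9, 49.5 and 41.8 against 238, 148 and 147 in heterozygous and 113, 146 and 212 in wild-type cells (-1.55 log2 units, SE 0.22, limma adjusted p = 0.00042). Here null cells alone were low.

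Haao, an enzyme of tryptophan breakdown, fell by 1.47 on the log2 scale, Galc, a lysosomal galactolipid enzyme, by 1.23, Lsp1, a leukocyte actin-binding protein, by 1.20, and Ighm, the immunoglobulin mu chain gene, by 1.17. Galc fell at both steps, from 83.3, 87.8 and 99.5 in wild type to 45.4, 43.3 and 50.3 in heterozygous and 10.6, 14.2 and 13.8 in null cells. Lars2, the mitochondrial leucyl-tRNA synthetase, read 86.5, 91.2 and 91.7 against 191, 228 and 216 (-1.13 log2 units, SE 0.13, limma adjusted p = 7.75e-05). The remaining falls were Rpp21 (-1.17), a subunit of RNase P, Pla2g12a (-1.15), a secreted phospholipase, Smim27 (-1.14), Klrb1f (-1.12) and Clec4b1 (-1.07), both C-type lectin receptors, Bex1 (-1.11) and Snord104 (-1.05), a small nucleolar RNA. The null means of Ncmap, Pla2g12a, Smim27 and Clec4b1 lay under the filter level, and with a pseudocount of 32 their differences were -1.32, -0.63, -0.60 and -0.60, while those of Haao and Galc were -0.94 and -0.80. The limma adjusted p of the 15 falls ranged from 1.19e-05 to 0.0157. For a gene whose call ended when 1 array was left out, those arrays are named, and in brackets stands the highest limma adjusted p over all 21 alternative settings, 9 of which leave out 1 array. Rpp21 lost its call without heterozygous replicates 1 or 2 (0.0719), Smim27 without null replicate 3 or heterozygous replicates 1 or 2 (0.0813) and Clec4b1 without heterozygous replicate 1 (0.051). Averaged over a gene's probe sets, the difference was -0.29 (adjusted p = 0.254) for Galc, -0.21 (adjusted p = 0.252) for Ighm and -0.31 (adjusted p = 0.0823) for Lars2. The other probe sets of Galc lay under the filter. Another Ighm probe set gave -1.19 (adjusted p = 0.000734 in the limma fit over probe sets). Its remaining fitted ones gave 0.09 to 0.44 and did not pass, and several lay under the filter.

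**Figure D2:**
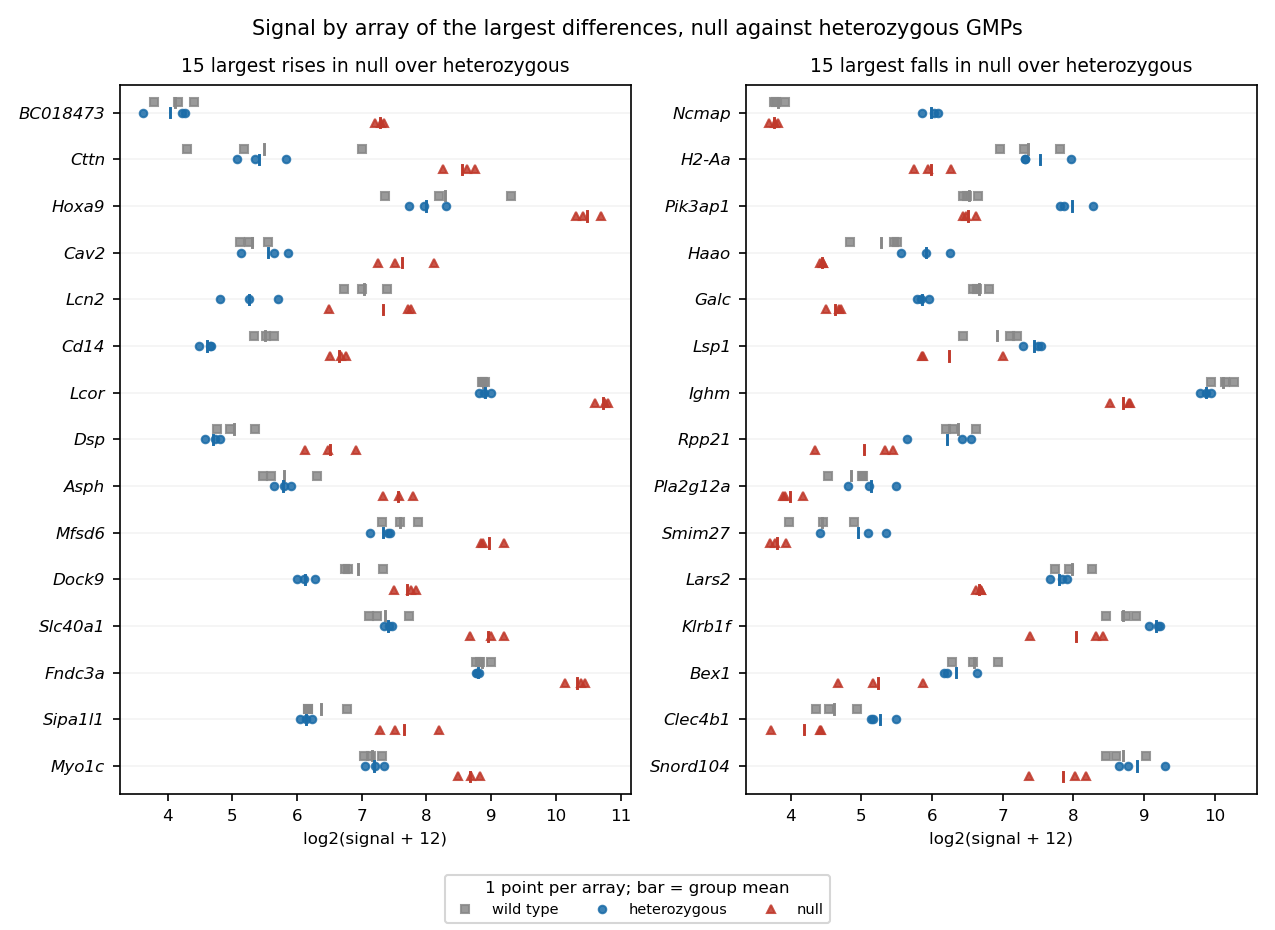
Signal by array, as log2(signal + 12) on the horizontal axis, of the 15 largest rises (left) and 15 largest falls (right) in null over heterozygous GMPs among genes whose values do not overlap. Each point is 1 array (n = 3 per group) and each vertical bar a group mean. The wild-type points of Lcor lie with the heterozygous ones and those of Ncmap and Pik3ap1 with the null ones.

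The design also allows the second copy's loss to be set against the first. Heterozygous and wild-type cells differed in 172 genes (1.39%). The contrast of the 2 steps, null minus heterozygous less heterozygous minus wild type, passed for 561 genes (4.55%; 314 with a more upward second step, 2.54%, and 247 with a more downward one, 2%). Of the 1771 genes called between null and heterozygous, 488 also passed this contrast and 1283 did not. The same heterozygous arrays enter both steps with opposite sign, so any error in them moves the steps in opposite directions. Without an intensity trend 122 genes passed the contrast, with the mean over probe sets 253, without a filter 366, and without heterozygous replicates 1, 2 and 3 in turn 128, 226 and 296.

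Among the genes that differed between the steps, Lcor, Fndc3a, Mfsd6, Myo1c, Slc40a1 and BC018473 had heterozygous minus wild-type differences of 0.02, -0.07, -0.27, 0.03, 0.05 and -0.08, none of which passed. Their contrasts between steps were 1.80, 1.60, 1.92, 1.44, 1.49 and 3.33 (limma adjusted p of 9.78e-06, 0.000169, 0.000822, 0.0019, 0.00825 and 0.000319). In these genes the change lay in the step from 1 copy lost to both. Other genes went one way at the first step and back at the second. Gcnt1, a glycosyltransferase named after its values were seen, read 546, 525 and 596 in wild type, 181, 219 and 251 in heterozygous and 577, 566 and 698 in null cells, with a contrast of 2.78 (SE 0.20, limma adjusted p = 6.88e-06). Cd14 read 34, 28.4 and 38.2, then 10.3, 13.4 and 13.3, then 79.5, 90.2 and 95.7 in that order, so that null cells ended above wild type. Its contrast was 2.95 (SE 0.27, limma adjusted p = 4.23e-05).

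A further set differed between wild-type and heterozygous cells and moved less, or not by this test, between heterozygous and null cells. Whether the loss of a copy accounts for these first steps was not tested. Igf2bp3, a fetal RNA-binding protein and described let-7 target, read 21.9, 27.4 and 19.2 in wild type, 243, 223 and 246 in heterozygous and 285, 295 and 386 in null cells. Its second step was 0.41 (SE 0.13, limma adjusted p = 0.0541, and 0.0379 without wild-type replicate 2) after a first step of 2.85 (limma adjusted p = 1.50e-08). Ifi202b, an interferon-inducible gene, went from 0.733, 0.952 and 0.755 to 242, 269 and 274 and then 372, 307 and 314, with second and first steps of 0.32 (limma adjusted p = 0.0842) and 4.41. Jun, Fos, Egr1 and Dusp1, immediate early genes that respond fast to stimuli, had first steps of -3.33, -2.47, -2.73 and -3.09. Their second steps were -0.35, -0.18, 0.02 and 0.18, none of which passed (limma adjusted p of 0.422, 0.702, 0.982 and 0.675). The contrasts of the steps passed for all 6 of these genes, which were named after their values were seen.

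Described targets of microRNAs were grouped by the microRNA family. Shares to be read against are the 6.85% of all tested genes called higher in null and the 7.49% called lower. The lists carry no test of their own, and several genes stand in more than 1 list. In each list the naming rule took the 4 members with the smallest p, though most of those that did not pass are left unnamed. Further members were named after their values were seen. Of 26 tested let-7 targets 6 rose and 0 fell (23.1%, median 0.11). Of 32 targets of the miR-17 and miR-92 clusters 8 rose and 1 fell (25% and 3.12%, median 0.14). Of 31 targets of miR-223 and miR-142 12 rose and 0 fell (38.7%, median 0.12). Of 29 targets of miR-155 and miR-146 6 rose and 0 fell (20.7%, median 0.07). The shares were lower for targets of miR-21 and miR-29, of which 3 rose and 1 fell of 28 (10.7% and 3.57%, median 0.02). For miR-15, miR-16, miR-125 and miR-181, 4 rose and 3 fell of 27 (14.8% and 11.1%, median 0.09). Most members of each list did not pass.

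**Figure D3:**
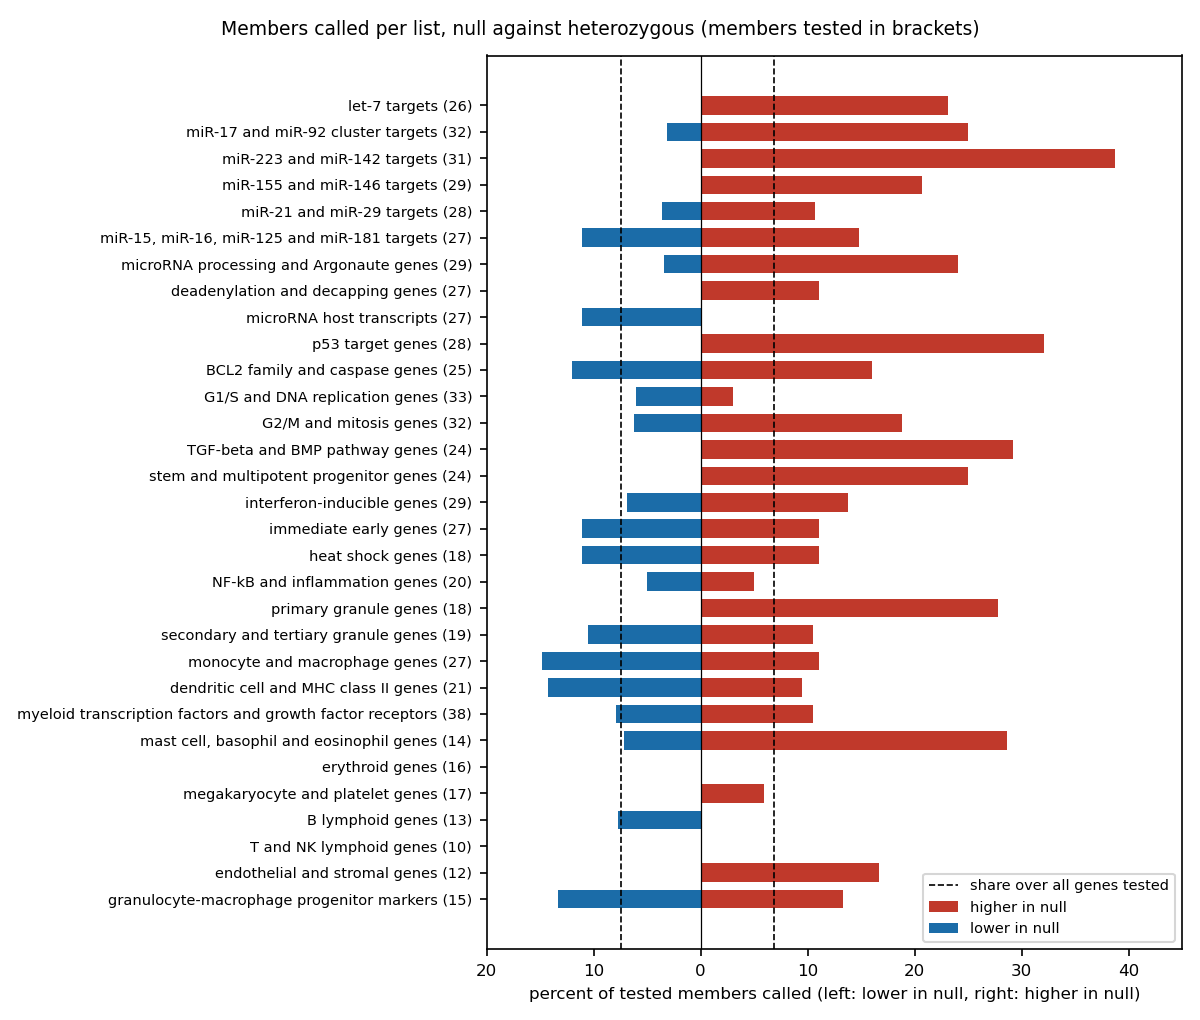
Percent of the tested members of each gene list called higher in null (red, right) or lower (blue, left) than in heterozygous GMPs; the number tested stands in brackets and the dashed lines mark 6.85% and 7.49%, the shares over all 12343 genes. The bar for miR-223 and miR-142 targets reaches 38.7%, and none of the 16 erythroid and 10 T and NK genes was called with all 9 arrays, while 3 erythroid genes fell without wild-type replicate 2.

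Among the targets of let-7, with the seed GAGGUAG, Hmga2, a chromatin protein of fetal stem cells, read 238, 345 and 250 in null and 95.4, 105 and 130 in heterozygous cells (1.23 log2 units, SE 0.15, limma adjusted p = 0.000126). Its wild-type values were 42.3, 39.8 and 38.3, so the first step was 1.22 (limma adjusted p = 0.000366), and the contrast of the steps was 0.01 (SE 0.26, limma adjusted p = 0.985). All 9 values lay in the order of the genotypes. Cdkn1a, the cell cycle inhibitor p21, read 310, 226 and 244 against 91.2, 88.9 and 88.4 (1.41 log2 units, SE 0.14, limma adjusted p = 3.52e-05). Tgfbr1, a TGF-beta receptor, read 549, 625 and 728 against 273, 287 and 307 (1.09 log2 units, SE 0.11, limma adjusted p = 2.57e-05). Bach1, a repressor of heme and oxidative stress genes, rose by 0.59, Lin28a, an inhibitor of let-7 maturation, by 1.07, and Mycn, a MYC family factor, by 1.07. Lin28a and Mycn were dim, at 51.4, 23.9 and 42.2 and at 19.3, 34.4 and 24.3 in null cells. Mycn read 10.1, 5.41 and 2.95 in heterozygous cells, with a mean under the filter level, and 24.3, 15.7 and 45.6 in wild type. Its null values thus lay within the wild-type range. Other described let-7 targets did not pass, among them Nras, Ccnd2, Cdc25a and Cdk6, with differences of 0.15, 0.12, 0.10 and 0.03. Mycn lost its call without null replicate 2 or heterozygous replicate 3 (0.0623).

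Of the miR-17 and miR-92 cluster targets, Tgfbr2, the partner receptor of Tgfbr1, read 317, 360 and 351 in null against 127, 145 and 150 in heterozygous and 136, 145 and 137 in wild-type cells (1.22 log2 units, SE 0.10, limma adjusted p = 8.69e-06). Bcl2l11, which encodes the death protein BIM, read 260, 239 and 235 against 124, 131 and 140 (0.84 log2 units, SE 0.12, limma adjusted p = 0.000523). In both genes null stood apart and the other genotypes overlapped. Hif1a, the oxygen-regulated factor, rose by 0.67, Smad4, the shared mediator of TGF-beta and BMP signals, by 0.60, Map3k5, a stress kinase, by 0.66, Jak1, a cytokine receptor kinase, by 0.49, and Ptpn4, a tyrosine phosphatase, by 0.54. Ccnd1, a D-type cyclin, was the 1 member that fell, at 111, 112 and 65.8 against 132, 133 and 214 (-0.66 log2 units, SE 0.20, limma adjusted p = 0.0413). Ptpn4 lost its call without null replicate 3 or heterozygous replicate 3 (0.0716) and Ccnd1 without null replicate 3 or heterozygous replicates 1, 2 or 3 (0.173). The mean over all of a gene's probe sets gave 0.17 (adjusted p = 0.293) for Jak1.

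Of the miR-223 and miR-142 targets, Itgav, the integrin alpha V chain, read 1723, 1425 and 1884 against 702, 785 and 749 (1.15 log2 units, SE 0.11, limma adjusted p = 2.57e-05). Cfl2, which encodes an actin-severing cofilin, read 472, 485 and 490 against 238, 268 and 211 (0.98 log2 units, SE 0.10, limma adjusted p = 3.77e-05). Wasl, an activator of actin branching, read 586, 418 and 503 against 203, 268 and 204 (1.11 log2 units, SE 0.19, limma adjusted p = 0.00184). In each of these 3 genes the null values lay above every heterozygous value. Cd69, a lymphocyte activation marker, rose by 0.82, Ell2, a transcription elongation factor, by 0.83, and Igf1r, the IGF1 receptor, by 0.63 (limma adjusted p of 0.000218, 0.00153 and 0.00411). Tgfbr1 is in this list too, which brings the members called in each of the 9 fits without 1 array to 7. The other 5 members called, Clock, Cpeb2, Strn3, Fbxw7 and Tab2, had differences of 0.25 to 0.81, and each lost its call without at least 2 of the arrays. Clock lost its call without null replicate 3 or heterozygous replicate 1 (0.0726), Cpeb2 without null replicates 1 or 3 or heterozygous replicates 1 or 3 (0.119) and Strn3 without any 1 of the null and heterozygous arrays except null replicate 1 (0.14). Fbxw7 lost its call without any 1 of the null and heterozygous arrays, or wild-type replicate 3 (0.146) and Tab2 without any 1 of the null and heterozygous arrays, or wild-type replicates 1 or 3 (0.285). With the mean over all probe sets the difference was 0.14 (adjusted p = 0.515) for Itgav and 0.39 (adjusted p = 0.112) for Ell2, and 6 members of the list passed under the setting that left the fewest. The other probe sets of Itgav lay under the filter.

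In the list for miR-155 and miR-146, Smad4, Bach1, Hif1a and Tab2 have been given above. Trp53inp1, a p53-induced nuclear protein, read 354, 432 and 527 against 166, 200 and 169 (1.22 log2 units, SE 0.21, limma adjusted p = 0.00156). Inpp5d, the phosphatase SHIP1, gave 0.40 (limma adjusted p = 0.0336). Inpp5d lost its call without any 1 of the null and heterozygous arrays except null replicate 2 (0.143). For miR-21 and miR-29, Reck, an inhibitor of matrix proteases, read 138, 129 and 157 against 48.7, 46.4 and 50.5 (1.34 log2 units, SE 0.17, limma adjusted p = 0.000171), Hbp1, a growth repressor, rose by 0.59 and Ireb2, an iron-responsive RNA-binding protein, by 0.41, and Bcl2, the survival gene, fell by 0.48. Every null value of Reck lay above the other 6 values. In the list for miR-15, miR-16, miR-125 and miR-181, Dusp6, a phosphatase of the ERK kinases, fell from 305, 287 and 340 to 169, 202 and 148 (-0.81 log2 units, SE 0.12, limma adjusted p = 0.000513). The other falls of this list were Bcl2 and Ccnd1, given above. Bmi1, a Polycomb protein of stem cells, rose by 0.43, Chek1, a DNA damage checkpoint kinase, by 0.33, and Bmf, a BCL2-family death gene, by 0.60, beside Lin28a above. Ireb2 lost its call without null replicate 3 (0.0649), Bcl2 without null replicates 1 or 3 or heterozygous replicates 1 or 2 (0.157) and Chek1 without null replicate 1 or heterozygous replicate 1 (0.408). Bmf lost its call without any 1 of the null and heterozygous arrays except null replicate 3 (0.736). Averaged over a gene's probe sets, the difference was 0.64 (adjusted p = 0.0614) for Trp53inp1 and 0.25 (adjusted p = 0.222) for Hbp1.

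**Figure D4:**
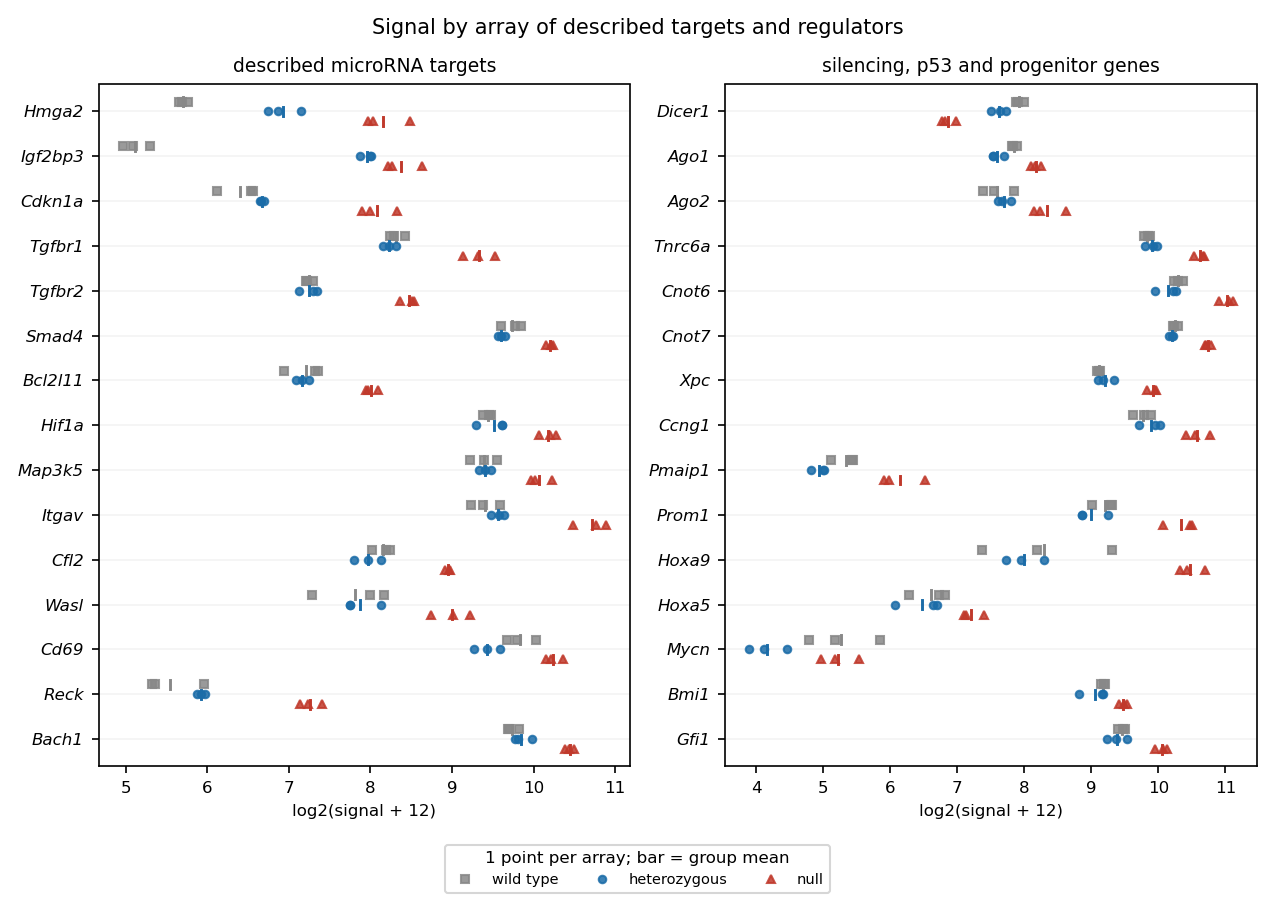
Signal by array, as log2(signal + 12) on the horizontal axis, of described microRNA targets (left) and of silencing, p53 and progenitor genes (right). Each point is 1 array (n = 3 per group) and each bar a group mean. Hmga2 rose at both steps, Igf2bp3 mainly from wild type to heterozygous, and Tgfbr1, Tgfbr2 and Itgav had null values above all others.

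Genes of the silencing machinery were read next. Of 29 tested genes of microRNA processing and the Argonaute complex, 7 rose and 1, Dicer1, fell (24.1% and 3.45%, median 0.07). Tnrc6a, the scaffold that binds Argonaute, read 1617, 1468 and 1626 in null against 999, 959 and 879 (0.73 log2 units, SE 0.08, limma adjusted p = 5.07e-05). Ago1 and Ago2, which hold the guide strand, rose by 0.58 and 0.64 (limma adjusted p of 0.00127 and 0.00772). Ago2 read 289, 271 and 384 against 183, 211 and 191, without overlap. Tnrc6b, Ago3 and Fmr1, an RNA-binding protein, had differences of 0.74, 0.65 and 0.27, and the seventh member is Lin28a. Tnrc6b lost its call without null replicate 3 or heterozygous replicate 1 (0.0683), Ago3 without any 1 of the null and heterozygous arrays except null replicate 2 (0.199) and Fmr1 without any 1 of the null and heterozygous arrays except null replicate 2, or wild-type replicates 1 or 3 (0.421).

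Of 27 deadenylation and decapping genes 3 rose and 0 fell (11.1%, median -0.02). Cnot6, a catalytic deadenylase, read 2201, 1916 and 2125 against 975, 1222 and 1178 (0.88 log2 units, SE 0.09, limma adjusted p = 3.77e-05), and Cnot7, another catalytic subunit, 1762, 1653 and 1669 against 1134, 1183 and 1172 (0.54 log2 units, SE 0.07, limma adjusted p = 0.000187). At these brightest probe sets both pairs of groups were well separated. Other fitted probe sets gave 0.27, 0.02 and 0.33 for Cnot6 and 0.49 and 0.17 for Cnot7. None of these passed in the limma fit over probe sets (adjusted p of 0.0844 or more). Both genes kept their calls under all 21 alternative settings. Patl1, a decapping factor, gave 0.36. Patl1 lost its call without any 1 of the null and heterozygous arrays, or wild-type replicate 3 (0.298). Of 27 transcripts that host microRNAs 0 rose and 3 fell (11.1%, median 0.03). These were Evl, the host of miR-342 (-0.58), Dleu2, the host of miR-15a and miR-16-1 (-0.61), and Ftx, an X-linked noncoding RNA (-0.35). Dleu2 lost its call without null replicates 2 or 3 or heterozygous replicates 1 or 2 (0.129) and Ftx without any 1 of the null and heterozygous arrays, or wild-type replicates 1 or 3 (0.172). The mean over all of a gene's probe sets gave -0.39 (adjusted p = 0.112) for Evl.

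Genes of TGF-beta and BMP signalling had a median of 0.21 over 24 tested members, of which 7 rose and 0 fell (29.2%). In this pathway a ligand brings together type I and type II receptor kinases, which phosphorylate receptor SMADs that enter the nucleus with Smad4. Both receptors for TGF-beta, Tgfbr1 and Tgfbr2, and the mediator Smad4 were among those that rose, with the values above. These 3 also stand in the target lists, so the lists do not count them independently. Smurf2, a ubiquitin ligase that limits the pathway, read 358, 255 and 319 against 214, 213 and 172 (0.60 log2 units, SE 0.13, limma adjusted p = 0.00777). The receptor SMADs Smad3 and Smad5 and the activin receptor Acvr1b gave 0.41, 0.34 and 0.40. Smad3 lost its call without any 1 of the null and heterozygous arrays except null replicate 1 (0.34), Smad5 without any 1 of the null and heterozygous arrays except heterozygous replicate 2, or wild-type replicate 3 (0.42) and Acvr1b without any 1 of the null and heterozygous arrays except null replicate 3 (0.175). The ligand Tgfb1 (-0.08), the inhibitory SMADs Smad6 (-0.32) and Smad7 (-0.10) and the BMP receptor Bmpr1a (-0.10) did not pass.

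Of 28 tested p53 target genes 9 rose and 0 fell (32.1%, median 0.14). Beside Cdkn1a and Trp53inp1, Pmaip1, which encodes the death protein NOXA, read 51.4, 48.3 and 79.9 against 19.9, 16.1 and 20.4 (1.20 log2 units, SE 0.19, limma adjusted p = 0.000919). Xpc, a DNA repair factor, read 895, 979 and 987 against 539, 568 and 633 (0.71 log2 units, SE 0.08, limma adjusted p = 9.61e-05), and Ccng1, a cyclin G, 1345, 1481 and 1738 against 830, 980 and 1027 (0.68 log2 units, SE 0.11, limma adjusted p = 0.00114). At their brightest probe sets all 3 separated null from heterozygous and wild-type arrays. The other fitted probe sets of Ccng1 gave 0.05 and 0.33 and did not pass (adjusted p of 0.806 and 0.182 in the limma fit over probe sets). Ccng1 kept its call under all 21 alternative settings. Rrm2b, Ddit4, Apaf1 and Perp gave 0.41, 0.79, 0.38 and 0.76, and leaving out single arrays left as few as 5 members called. Rrm2b lost its call without null replicates 1 or 3 or heterozygous replicates 1 or 2 (0.829), Ddit4 without null replicates 1 or 2 or heterozygous replicates 1 or 3 (0.0962) and Apaf1 without any 1 of the null and heterozygous arrays except null replicate 2 (0.783). Perp lost its call without null replicates 1 or 2 or heterozygous replicates 1 or 3 (0.131). With the mean over all probe sets Rrm2b turned to -0.056 (limma adjusted p = 0.829).

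Genes of the BCL2 family and the caspases went both ways, with 4 up and 3 down of 25 (16% and 12%, median -0.07). The death genes Bcl2l11 and Pmaip1 rose, as did Bmf and the apoptosome scaffold Apaf1. Those that fell were Bcl2, a survival gene, and Diablo (-0.52, limma adjusted p = 0.00637) and Bid (-0.37), which both promote death. Bid lost its call without any 1 of the null and heterozygous arrays except heterozygous replicate 2 (0.314). The survival genes Mcl1 and Bcl2l1 did not pass, at -0.03 and -0.17.

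Cell cycle genes were grouped by phase, and the lists were not tested against each other. Of 33 G1/S and replication genes 1 rose and 2 fell (3.03% and 6.06%, median 0.02), both below the shares over all genes. Ccne2, a cyclin of S phase entry, read 1000, 872 and 1099 against 600, 590 and 684 (0.65 log2 units, SE 0.12, limma adjusted p = 0.00268), and Cdk4, a G1 kinase, and Ccnd1 fell by 0.29 and 0.66. Of 32 mitotic genes 6 rose and 2 fell (18.8% and 6.25%, median 0.06). Ect2 (0.74), Anln (0.66), Kif23 (0.50) and Prc1 (0.44), which act in the division of the cell body, rose, as did Nusap1 and Ccna2 by 0.30 and 0.29. Ect2 read 1080, 1166 and 1418 against 629, 711 and 835. Cenpa, the centromeric histone, fell from 628, 575 and 512 to 358, 363 and 314 (-0.71 log2 units, SE 0.10, limma adjusted p = 0.000449), and Birc5, survivin, fell by 0.35. Averaged per gene over probe sets, 2 mitotic genes rose and 1 fell. Cdk4 lost its call without null replicates 1 or 3 or heterozygous replicates 1 or 2 (0.0716), Birc5 without null replicates 2 or 3 or heterozygous replicates 2 or 3 (0.0765) and Nusap1 without any 1 of the null and heterozygous arrays except heterozygous replicate 3 (0.181). Ccna2 lost its call without null replicates 1 or 3 or heterozygous replicates 1 or 2 (0.778). With the mean over all probe sets the difference was -0.50 (adjusted p = 0.0631) for Cenpa, 0.13 (adjusted p = 0.524) for Kif23 and 0.25 (adjusted p = 0.102) for Prc1.

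Of 24 stem and multipotent progenitor genes 6 rose and 0 fell (25%, median 0.19). The largest rise after Hoxa9 was that of Prom1, the surface protein CD133, at 1435, 1059 and 1407 in null against 454, 454 and 599 in heterozygous cells (1.35 log2 units, SE 0.13, limma adjusted p = 3.25e-05). Hmga2 followed, Bmi1 rose by 0.43, and Hoxa5, another homeobox gene, by 0.74. The sixth member that rose is Mycn, whose null values lay within the wild-type range. Hoxa5 lost its call without null replicate 2 or heterozygous replicate 3 (0.0556). A dimmer probe set of Hoxa9 gave 0.66 (SE 0.20) with an adjusted p of 0.0561 in the limma fit over probe sets.

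The myeloid fate genes split in direction. Of 38 genes for myeloid transcription factors or for receptors of growth factors 4 rose and 3 fell (10.5% and 7.89%, median -0.04). Gfi1, a repressor that favours the neutrophil fate, read 981, 1064 and 1109 in null against 591, 650 and 727 (0.67 log2 units, SE 0.09, limma adjusted p = 0.000235). Irf8, a factor needed for monocytes and dendritic cells, read 566, 538 and 423 against 774, 784 and 866 (-0.66 log2 units, SE 0.12, limma adjusted p = 0.00216), and its other probe set gave -1.21. The groups of neither gene overlapped, and heterozygous cells were close to wild type in Gfi1, with values of 666, 712 and 699 there. Klf4, a monocyte factor, gave -0.79, with 747, 462 and 425 against 1051, 791 and 944. Id2, an inhibitor of helix-loop-helix factors, rose by 0.56, and the near-identical receptor chains Csf2rb and Csf2rb2, whose probes may not tell them apart, by 0.39 and 0.47, while Csf3r, the G-CSF receptor, fell by 0.40. Klf4 lost its call without null replicates 2 or 3 or heterozygous replicates 1 or 3 (0.295), Csf3r without heterozygous replicate 3 (0.0632) and Csf2rb without null replicate 1 or heterozygous replicates 1 or 2 (0.0831). Csf2rb2 lost its call without null replicate 1 or heterozygous replicates 2 or 3 (0.0878). Averaged over a gene's probe sets, the difference was 0.16 (adjusted p = 0.443) for Id2. Cebpa (-0.25), Spi1 (-0.37), Csf1r (0.07) and Kit (0.26) did not pass. The GMP marker list had 13.3% up and 13.3% down (median -0.07), the Fc receptor Fcgr2b with a limma adjusted p of 6.94e-05. Without null replicate 1, 5 members of the list of factors and receptors fell.

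Granule genes are grouped by the stage at which neutrophils make them. Of 18 genes listed for primary granules, made in promyelocytes, 5 rose and 0 fell (27.8%, median 0.11). Among these is Gfi1, which encodes a repressor and no granule protein, and without it 4 of 17 rose (23.5%). Serpinb1a, an inhibitor of granule proteases, read 4640, 4586 and 4651 against 3460, 3440 and 3599 (0.40 log2 units, SE 0.06, limma adjusted p = 0.000705), and Gstm1, Hp and Lyz2, which encode a glutathione transferase, haptoglobin and lysozyme, rose by 0.61, 0.38 and 0.79. Lyz2 has a near-identical copy, Lyz1, whose transcript its probes may also read. The serine protease genes Elane, Prtn3 and Ctsg and the peroxidase gene Mpo had differences of -0.12, -0.18, 0.11 and -0.09 and did not pass. Without an intensity trend Hp and Lyz2 gave a limma adjusted p of 0.0504 and 0.0611, and with a robust prior Lyz2 gave 0.0576.

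Of 19 secondary and tertiary granule genes, made later, 2 rose and 2 fell (10.5% each way, median 0.20). Lcn2 read 205, 78.3 and 198 in null, 26.3, 16.1 and 40 in heterozygous and 93.4, 155 and 117 in wild-type cells (2.07 log2 units, SE 0.30, limma adjusted p = 0.000551), so null values spanned the wild-type ones. Slpi, a protease inhibitor, fell from 1664, 1332 and 1331 to 815, 850 and 707 (-0.85 log2 units, SE 0.16, limma adjusted p = 0.00342). Trem3 and Csf3r gave 0.29 and -0.40. Trem3 lost its call without null replicates 1 or 3 or heterozygous replicates 2 or 3 (0.147). Without null replicate 2, 4 rose. S100a8, S100a9, Camp and Chil3 had differences of 0.30, 0.45, 0.62 and 1.38 and wide spread, and did not pass. The summed signal of the list was 8257 to 15626 on null and 8455 to 11404 on heterozygous arrays, with overlap. Summed signals here and below cover every list member with a probe set of its own, tested or not.

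Of 27 monocyte and macrophage genes 3 rose and 4 fell (11.1% and 14.8%, median -0.07). The rises were in sensing receptors, Cd14 (2.04 log2 units, SE 0.15, limma adjusted p = 4.56e-06), Tlr4, the lipopolysaccharide receptor (0.72), and Fcgr4, an Fc receptor (0.66). The falls were in Irf8, Klf4, the lysosomal marker Cd68 (-0.47) and Ms4a6c (-0.42). Without wild-type replicate 2, as with the 6 arrays alone, 7 fell, the added ones being the macrophage marker Adgre1 (-0.51), the protease Ctss (-0.38) and the oxidase subunit Cybb (-0.51), at limma adjusted p of 0.0149, 0.0302 and 0.0259 there. Tlr4 lost its call without null replicates 1 or 3 or heterozygous replicate 1 (0.0712), Fcgr4 without null replicate 3 or heterozygous replicates 2 or 3 (0.0924) and Cd68 without any 1 of the null and heterozygous arrays except null replicate 3 (0.105). Ms4a6c lost its call without any 1 of the null and heterozygous arrays except null replicate 2 (0.118).

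Of 21 dendritic cell and MHC class II genes 2 rose and 3 fell (9.52% and 14.3%, median -0.12). H2-Eb1, the beta chain of an MHC class II molecule, read 28.2, 17 and 18.6 in null against 44.1, 39.3 and 52.1 in heterozygous cells (-0.79 log2 units, SE 0.17, limma adjusted p = 0.00658), and Clec10a, a lectin of dendritic cells and macrophages, 47.7, 50.5 and 34 against 78.2, 73.6 and 70.7 (-0.63 log2 units, SE 0.14, limma adjusted p = 0.00974). With H2-Aa, these 3 falls passed in each of the 9 fits that left out 1 array. Id2 and Ifi30, a lysosomal thiol reductase of antigen processing (0.48), rose. Ifi30 lost its call without null replicate 1 or heterozygous replicate 2 (0.0863). The list's summed signal overlapped, at 5033 to 5721 on null and 5124 to 5807 on heterozygous arrays.

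**Figure D5:**
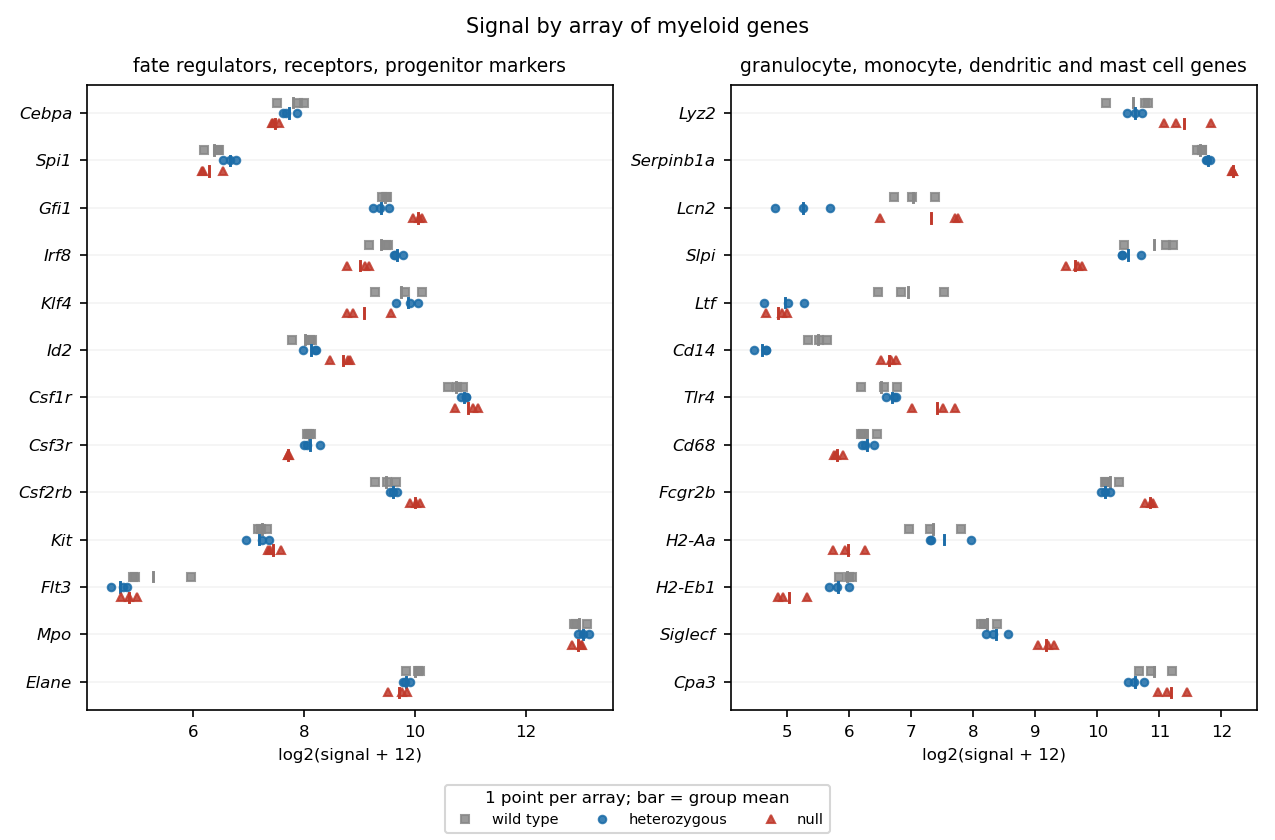
Signal by array, as log2(signal + 12) on the horizontal axis, of fate regulators, receptors and progenitor markers (left) and of granulocyte, monocyte, dendritic and mast cell genes (right). Each point is 1 array (n = 3 per group) and each bar a group mean. Gfi1 and Serpinb1a lie higher and Irf8, H2-Aa and H2-Eb1 lower in null than in heterozygous cells, while Mpo, Elane and Csf1r overlap.

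Genes of mast cells, basophils and eosinophils, whose precursors lie close to GMPs, had a median of 0.35 over 14 tested members, with 4 up and 1 down (28.6% and 7.14%). Siglecf, a surface lectin of eosinophils, read 576, 617 and 515 in null against 283, 309 and 364 (0.82 log2 units, SE 0.11, limma adjusted p = 0.000325). Cpa3, a mast cell protease, read 2207, 2768 and 2011 against 1537, 1722 and 1424 (0.56 log2 units, SE 0.13, limma adjusted p = 0.0116). Hdc, which makes histamine, Mcpt8, a basophil protease, and Mitf, a mast cell factor, gave 0.44, 0.61 and -0.34. Hdc lost its call without null replicate 2 or heterozygous replicates 1 or 3 (0.214), Mcpt8 without null replicates 1 or 2 or heterozygous replicates 2 or 3 (0.137) and Mitf without any 1 of the null and heterozygous arrays, or wild-type replicates 1 or 3 (0.222). Without an intensity trend Cpa3 had a limma adjusted p of 0.0642. The summed signal of the list covers 20 genes, of which 6 were too dim to test. It was 7031 to 9404 on null arrays and 5558 to 6013 on heterozygous arrays, without overlap. On wild-type arrays it was 5532 to 8043, which overlaps the null range. Its part in the other results was not tested. Fcer1a had the list's largest difference, 0.86, and did not pass with all 9 arrays (limma adjusted p = 0.125). It passed without wild-type replicate 2 (0.012). Its mean signals were 34.0 in null, 13.4 in heterozygous and 244 in wild-type cells.

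Few markers of other lineages passed. Of 16 erythroid genes 0 passed in the fit of 9 arrays, where their median was -0.46 and all 3 null values lay below the heterozygous ones in 5 of them. Without wild-type replicate 2, and likewise with the 6 null and heterozygous arrays alone, 3 of them fell. These were Car1, a carbonic anhydrase (-0.96), Ermap, a red cell membrane protein (-0.91), and Aqp1, a water channel (-0.76), with limma adjusted p of 0.0304, 0.00569 and 0.0176 without that array against 0.309, 0.273 and 0.205 with it. The summed signals of the erythroid list overlapped, at 2001 to 2429 on null and 2223 to 2706 on heterozygous arrays. Of 17 megakaryocyte genes 1 rose (5.88%, median 0.04), Itgb3, the platelet integrin beta chain (0.84). Selp, the adhesion molecule P-selectin, had the largest difference of the list, 1.29, with values of 107, 173 and 209 in null against 41.4, 79.3 and 55.6 in heterozygous cells. It did not pass with all 9 arrays (limma adjusted p = 0.129) and passed without wild-type replicate 2 (0.00211), when Cd9 also did (0.37, limma adjusted p = 0.0464) and 3 members rose. Of 13 B lymphoid genes 1 fell (7.69%, median -0.04), Ighm, at 436, 429 and 354 against 927, 876 and 978 (-1.17 log2 units, SE 0.10, limma adjusted p = 1.19e-05). The summed signal of that list was 783 to 1022 on null and 1406 to 1525 on heterozygous arrays, and without Ighm 429 to 593 and 530 to 586, which overlap. Of 10 T and NK genes 0 passed (median -0.10). Of 12 endothelial and stromal genes 2 rose (16.7%, median 0.03), Pdgfrb, a growth factor receptor (0.70), and Vcam1, an adhesion molecule (0.64). Itgb3 lost its call without heterozygous replicates 1 or 2 (0.114), Pdgfrb without heterozygous replicate 1 (0.06) and Vcam1 without any 1 of the null and heterozygous arrays except null replicate 2, or wild-type replicate 3 (0.169). The summed endothelial and stromal signal covers 23 genes, of which 11 were too dim to test. It was 695 to 777 on null and 495 to 576 on heterozygous arrays, without overlap. Whether cells of these lineages entered the sort was not tested.

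Response genes showed no common direction at the second step. Of 29 interferon-inducible genes 4 rose and 2 fell (13.8% and 6.9%, median 0.07). Rsad2, the antiviral protein viperin, read 128, 126 and 124 against 54.7, 48.4 and 68.3 (1.01 log2 units, SE 0.19, limma adjusted p = 0.00292), Ifitm3, Oas1a and Ddx58 rose by 0.63, 0.52 and 0.56, and Irf8 and Ifitm6 (-0.64) fell. Of 27 immediate early genes 3 rose and 3 fell (11.1% each way, median -0.04). Klf2, a factor of quiescent cells, rose by 1.17 (limma adjusted p = 0.00428), Klf6 and Fosl2 by 0.44 and 0.67, and Dusp6, Ier2 (-0.72, limma adjusted p = 0.00141) and Klf4 fell. Klf2 read 32.4, 47.9 and 44.5 in wild type, 25.3, 7.17 and 25.2 in heterozygous and 61.9, 52.9 and 51.8 in null cells. In the contrast of the steps 9 of the 27 passed with a more upward second step and 0 the other way, against 2.54% and 2% of all genes, and of the interferon list 0 and 4 of 29. The median first step was -0.34 for the immediate early list and 0.35 for the interferon list. Ifitm3 lost its call without null replicate 2 or heterozygous replicate 2 (0.0811), Oas1a without null replicates 1 or 2 or heterozygous replicates 1 or 2 (0.112) and Ddx58 without any 1 of the null and heterozygous arrays except null replicate 1 (0.562). Ifitm6 lost its call without null replicate 3 or heterozygous replicate 1 (0.0663), Klf6 without null replicate 3 (0.0756) and Fosl2 without null replicate 1 or heterozygous replicate 1 (0.0786). The mean over all of a gene's probe sets gave 0.41 (adjusted p = 0.165) for Rsad2.

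Of 18 heat shock genes 2 rose and 2 fell (11.1% each way, median 0.06). Hsph1, a large chaperone, fell from 778, 860 and 983 to 642, 533 and 483 (-0.65 log2 units, SE 0.12, limma adjusted p = 0.00219), and Hspe1, a mitochondrial co-chaperone, by 0.32. Hspa4 and Bag3 rose by 0.38 and 0.65. Bag3 lost its call without null replicates 1 or 3 or heterozygous replicates 1 or 3 (0.159) and Hspe1 without null replicates 1 or 3 or heterozygous replicates 1 or 3, or wild-type replicates 1 or 3 (0.176). With the mean over all probe sets Hspa4 turned to -0.20 (limma adjusted p = 0.234). Of 20 NF-kB and inflammation genes 1 rose and 1 fell (5% each way, median 0.01). They were Icam1, an adhesion molecule, at 106, 103 and 96.2 against 47.3, 51.1 and 58.4 (0.83 log2 units, SE 0.14, limma adjusted p = 0.00162), and Nfkbie, an NF-kB inhibitor, at 55.2, 60 and 40.2 against 85.4, 90.5 and 95.1 (-0.69 log2 units, SE 0.14, limma adjusted p = 0.00396).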

How the data were processed

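RNA of sorted EYFP+ GMPs was hybridised to 9 Affymetrix Mouse Genome 430 2.0 arrays, 3 per genotype. The deposited values are MAS5 signal intensities on a linear scale, per the submitters' processing notes and the file header, trimmed by 2% at each end to a mean of 100. The array number, and not a read depth, limits precision. Log2(signal + 12) was fitted for all 9 arrays in R 4.3.3 with limma 3.58.1 (lmFit, eBayes with an intensity trend, 6 residual and 8.1 prior degrees of freedom), with Benjamini-Hochberg adjustment over all genes tested. Control probe sets (64), those with several symbols (932) and those with none (9160) were left out of 45101, the brightest of a gene's probe sets stood for it, and genes whose mean log2(signal + 12) lay under the 40th percentile, which corresponds to a signal of 8.5, were not tested. An exact permutation test of 3 against 3 cannot go below p = 0.1 and was not used. Samples were not paired by replicate number in the main fit, and whether the numbers mark pairs is not known. The 31 gene lists (922 entries, 736 tested) and the comparison were chosen with earlier results of these data known. The naming rule took the 15 largest rises and 15 largest falls that passed without overlap, per list the 4 members of lowest p, Dicer1 and controls. Most list members so taken that did not pass are not named in the text. Other genes were named after their values were seen. Alternatives changed the pseudocount, filter, normalization, variance prior, weights, probe set summary and arrays used. The procedure was tested on simulated data.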

Additional observations from a re-analysis of the deposited data

Results flagged for a closer look

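Probe sets that name no gene entered no comparison above, and 3 of them differed by more than any other such probe set between null and heterozygous cells. In a limma fit over the 27013 probe sets above the filter, 4657 had no single gene symbol. Of these 4657, 235 passed, 85 higher and 150 lower in null. The share that passed over all 27013 was not counted, so these counts cannot be set against it. The probe set 1425583_at read 30.3, 72.7 and 57.1 on null arrays against 6.08, 5.29 and 5.35 on heterozygous ones (1.84 log2 units, SE 0.24, limma adjusted p = 0.000415). The probe set 1456893_at read 214, 132 and 165 against 42.4, 34.3 and 40.8 (1.81, SE 0.19, limma adjusted p = 6.42e-05), and its wild-type values of 36.6, 39.7 and 22.8 lay near the heterozygous ones. The probe set 1436230_at read 41.1, 41.1 and 38.9 against 2.29, 1.93 and 11 (1.66, SE 0.31, limma adjusted p = 0.00442). The heterozygous and wild-type means were 5.58 and 3.55 for 1425583_at and 5.08 and 7.73 for 1436230_at. All lay under the filter level of 8.5, so these probe sets were tested only through their null values.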

How the results depend on the processing

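Null against heterozygous cells gave 1725 to 1930 calls with a pseudocount of 1 or 32, a robust prior, array weights, quantile or loess scaling, a stricter filter or the 6 arrays alone, and 1413 without a filter. Without an intensity trend 1104 genes passed (539 higher, 565 lower; 1067 of them shared with the 1771), and the contrast of the steps passed for 122. With the mean over all probe sets 496 were higher and 760 lower, and the contrast passed for 253, and without a filter for 366. Leaving out 1 array at a time gave 1034 to 1897 calls, 526 to 917 higher and 508 to 980 lower, and 128 to 601 for the contrast. Cyclic loess moved the share called higher from 47.8% to 54.1%, and the mean over probe sets to 39.5%. With that mean, Hspa4 turned to -0.20 and Rrm2b to -0.056. Of 147 named or listed genes called, 69 kept the call under every one of the 21 alternatives that tested them. Deviations of same-numbered null and heterozygous samples correlated at 0.06, -0.02 and 0.14. With 3 samples a group these values cannot decide whether the numbers pair the samples. A replicate block gave 1936 calls and 660 for the contrast. Except where a fit used fewer genes or samples, the cause of these changes was not tested.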
